A study of Arabidopsis thaliana with 9 samples.

Results

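The YABBY genes of Arabidopsis thaliana are a small plant family of transcription factors with 6 members: CRABS CLAW (CRC, AT1G69180), INNER NO OUTER (INO, AT1G23420), FILAMENTOUS FLOWER (FIL, AT2G45190), YABBY2 (YAB2, AT1G08465), YABBY3 (YAB3, AT4G00180) and YABBY5 (YAB5, AT2G26580). The members were taken by locus name, by a rule that uses no measured value, and are 6 of the 32833 loci in the count table. At least 1 read was counted at 24400 of those loci, and 20827 passed the filter on low counts and were tested. All 6 members were among the genes tested.

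The libraries came from the wild-type accession Col-0, with no transgene or treatment named, and all carry the stage label Flower Bud Differentiation. Of the 9 libraries, 3 were made from stamens (named male), 3 from gynoecium (named female) and 3 from leaf. The study set out to profile male and female gametophytes, but the labelled tissues are whole organs. The share of gametophytes in them was not measured. Separate plants for the 3 libraries of a tissue are not mentioned in the labels, so a p-value here measures the spread between these libraries, which may be technical. No batch, date or growth condition is labelled. Total counts ran from 16042169 to 18756860 per library. The labelled tissues were checked against short lists of marker genes named by locus, chosen with earlier results of these data known. The summed level of 5 stamen markers was 1218 to 1270 CPM (counts scaled to a common library size) in stamens, 19.1 to 20.7 in gynoecium and 0 in leaf. The sum of 5 gynoecium and ovule markers was 185.3 to 188.1 CPM in gynoecium, 0.986 to 1.80 in stamens and 0 in leaf. The sum of 5 leaf mesophyll markers was 12052 to 12838 CPM in leaf and at most 472 in either floral tissue.

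YABBY proteins carry a zinc finger near the amino end and a YABBY domain, which resembles an HMG box and binds DNA, toward the carboxyl end. They are best known for marking the abaxial (lower or outer) side of lateral organs and for blade outgrowth. FIL, YAB2, YAB3 and YAB5 are active in leaves and floral organs and are called the vegetative YABBY genes. CRC acts in carpels and nectaries, and INO acts in the outer integument, the outer of the coats that enclose the ovule. YABBY proteins work with co-repressors of the LEUNIG and SEUSS families.

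The members' shared zinc finger is shown first because it is a feature that every member carries while their levels differ. In each coding sequence, exactly 2 motifs of a cysteine, any 2 residues and a cysteine were found, starting 24 residues apart. The 84 coding bases from the first to the last of these cysteines, read 5′ to 3′ from the TAIR10.1 assembly on the coding strand, are given with the codons of the motifs' cysteines in capitals; any other cysteine codon is in lower case.
CRC: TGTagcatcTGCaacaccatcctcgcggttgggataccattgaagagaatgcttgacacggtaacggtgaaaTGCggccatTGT
INO: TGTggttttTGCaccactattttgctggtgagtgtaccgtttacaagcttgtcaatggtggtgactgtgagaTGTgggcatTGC
FIL: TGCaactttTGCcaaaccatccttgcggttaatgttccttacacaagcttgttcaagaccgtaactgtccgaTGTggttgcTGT
YAB2: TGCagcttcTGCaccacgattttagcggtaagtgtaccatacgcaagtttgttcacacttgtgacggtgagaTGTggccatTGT
YAB3: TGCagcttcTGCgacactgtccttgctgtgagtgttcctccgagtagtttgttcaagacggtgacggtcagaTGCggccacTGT
YAB5: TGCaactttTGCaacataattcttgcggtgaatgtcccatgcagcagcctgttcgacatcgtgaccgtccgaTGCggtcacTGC

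Against the FIL stretch, YAB5 matched at 63 of 84 bases, YAB3 at 61, YAB2 at 56, and CRC and INO at 51 each. The stretch covers residues 30 to 57 of FIL and YAB3, 16 to 43 of YAB5, 15 to 42 of YAB2, 26 to 53 of CRC and 57 to 84 of INO.

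FIL and YAB3 form the closest pair, with 144 of 228 aligned residues identical (63.2%). A coding stretch around a shared run of their longest length is printed because it shows how far a short read can tell this pair apart. The capitals mark 1 shared run of 17 bases, a length that another run in the stretch also reaches, and 105 of the 120 bases are identical in the pair. The stretch covers coding bases 409 to 528 of FIL and 445 to 564 of YAB3.
FIL: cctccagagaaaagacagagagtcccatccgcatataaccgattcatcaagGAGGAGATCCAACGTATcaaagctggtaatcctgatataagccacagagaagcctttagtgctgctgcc
YAB3: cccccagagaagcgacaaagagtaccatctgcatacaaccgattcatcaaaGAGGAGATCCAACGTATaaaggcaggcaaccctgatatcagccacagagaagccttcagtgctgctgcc

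Over the 15 pairs of members, the longest exact run that any transcripts of a pair share was 10 to 20 bases, the longest being that of CRC and YAB3. The read length is not given in the sources used here.

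The members lie on chromosomes 1, 2 and 4 of the TAIR10.1 annotation. CRC spans chr1:26007350-26009141 on the minus strand with 7 exons and encodes 181 residues. INO spans chr1:8317297-8319491 on the plus strand with 7 exons and encodes 262 residues. FIL, listed in that annotation under the symbol AFO, spans chr2:18628252-18630779 on the minus strand with 7 exons and encodes 229 residues. YAB2 spans chr1:2675813-2679824 on the plus strand with 6 exons and encodes 184 residues. YAB3 spans chr4:72545-75576 on the minus strand with 7 exons and encodes 240 residues. YAB5 spans chr2:11303455-11307010 on the minus strand with 7 exons and encodes 164 residues. CRC alone among the members overlaps another gene model, sharing 19 exon bases (1.68%) with AT1G69170 on the opposite strand. The strand setting of the counting is not given in the sources used here, so reads from those bases cannot be told apart.

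All 6 YABBY genes were lower in stamens than in gynoecium, by 1.84-fold for YAB2 up to 168-fold for INO. A gene was called at a Benjamini-Hochberg adjusted p under 0.05 over the 20827 genes, by edgeR's quasi-likelihood test. In this comparison 85.3% of all genes tested were called, 46.3% higher in stamens and 39.0% lower, so a call on its own says little and the size of the change carries the description. The median log2 change of the 6 members was -3.11, beside 0.09 over all genes tested. In bulk tissue, fewer cells of a type and less RNA per cell cannot be told apart.

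Against leaf, the stamens had 4 members higher (CRC, INO, FIL and YAB2) and 2 lower (YAB3 and YAB5). Over all genes, 87.9% were called, 50.0% higher in stamens and 37.9% lower. The members' median log2 change was 0.99, or 0.72 with CRC and INO set at the lower bound of their change, beside 0.23 over all genes.

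The gynoecium had 5 members higher than leaf and 1 lower, YAB5. Over all genes, 82.5% were called, 42.6% higher in gynoecium and 40.0% lower. The members' median log2 change was 2.55, beside 0 over all genes. The libraries of any pair of tissues did not overlap for any member. The share of all genes without overlap was not computed, so this does not set the members apart.

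**Figure D1:**
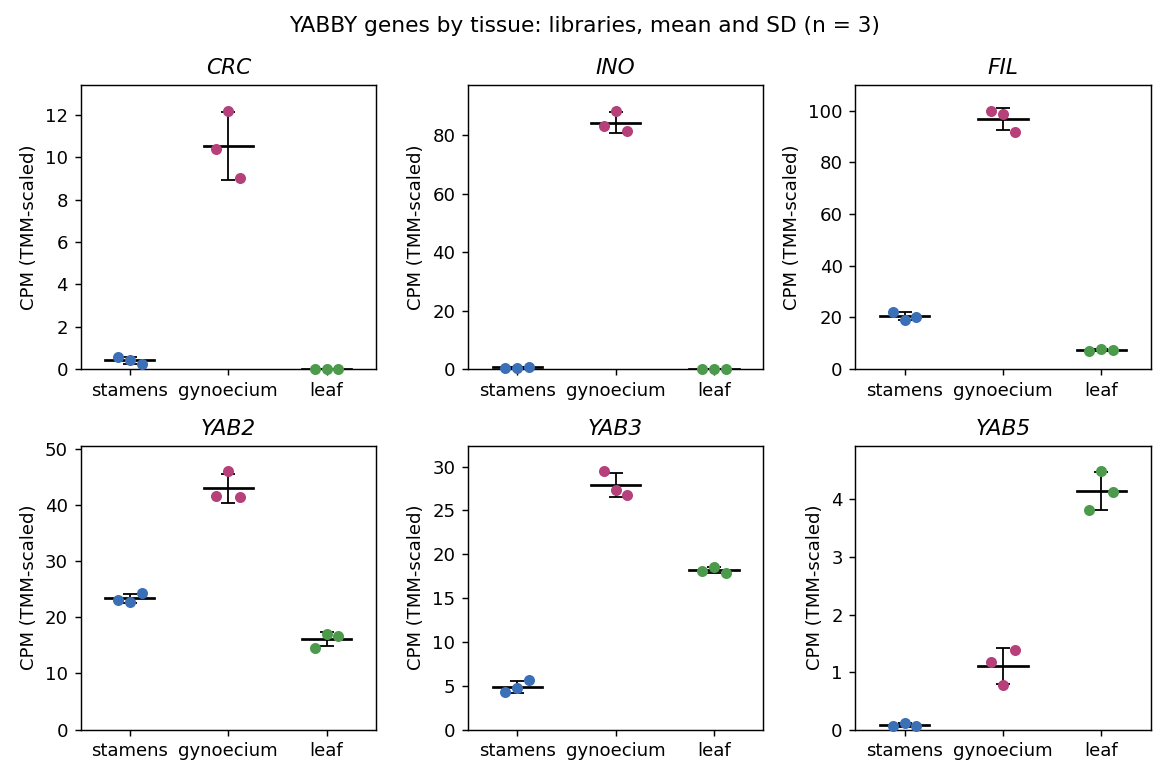
Level of each YABBY gene in CPM on TMM-scaled library sizes, with a separate linear vertical axis for each gene. Points are libraries, horizontal bars are means and error bars are SD (n = 3); CRC and INO sit near 0 in stamens and at 0 in leaf, and YAB5 is the member whose leaf points lie highest.

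CRC, which directs carpel growth and nectary formation, was counted almost only in gynoecium. Its gynoecium libraries held 248, 269 and 209 counts, or 10.4, 12.2 and 9.04 CPM. The stamen libraries held 10, 7 and 4 counts, or 0.579, 0.412 and 0.247 CPM. The leaf libraries held 0 counts, where 3 counts would be 0.214 to 0.229 CPM. Each gynoecium library was thus well above each stamen library, and each stamen library was above leaf.

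The mean CRC level was 10.5 ± 1.59 CPM in gynoecium (SD, n = 3) and 0.413 ± 0.166 in stamens (SD, n = 3). The difference was 24.9-fold (log2 -4.64, SE 0.24, edgeR adjusted p = 4.91e-26). With 21 counts in all stamen libraries, the ratio of scaled counts was 25.3 with an exact 95% interval of 16.4 to 41.1, which covers counting error only. Against leaf, set at 3 counts per library, CRC was at least 48.2-fold higher in gynoecium (edgeR adjusted p = 1.43e-27) and at least 1.89-fold higher in stamens (edgeR adjusted p = 2.64e-05).

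CRC is known from nectaries, glands at the stamen bases, so nectary markers were read beside it. Of 5 such markers, 2 had counts in stamens, with a summed level of 196.7 to 200.9 CPM. Nearly all of that was CWINV4, a cell wall invertase, at a mean of 196.6 CPM. SWEET9, the nectary sucrose exporter, was at 0 in all 9 libraries. The sum was 6.72 to 8.17 CPM in gynoecium, with 3 of 5 markers counted, and 4.20 to 5.63 CPM in leaf, with 2 of 5. Most of these sums was PIN6, at a mean of 6.21 CPM in gynoecium and 4.66 in leaf. PIN6 was at 0 in stamens, so the markers did not go together. The part of nectary cells in the stamen counts of CRC was not tested.

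INO, which is needed for outer integument growth, had the steepest contrast of the family. The gynoecium libraries held 1986, 1948 and 1882 counts, or 83.3, 88.4 and 81.4 CPM. The stamen libraries held 5, 7 and 13 counts, or 0.290, 0.412 and 0.801 CPM. The leaf libraries held 0 counts. All gynoecium libraries stood together, far above the stamen libraries, and the stamen libraries were spread at these low counts.

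The mean INO level was 84.4 ± 3.65 CPM in gynoecium (SD, n = 3) and 0.501 ± 0.267 in stamens (SD, n = 3), 168-fold apart (log2 -7.39, SE 0.13, edgeR adjusted p = 3.2e-50). The ratio of scaled counts was 170.1 with an exact 95% interval of 115 to 263. Against leaf, INO was at least 385-fold higher in gynoecium (edgeR adjusted p = 9.76e-50) and at least 2.29-fold higher in stamens (edgeR adjusted p = 2.45e-06).

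The low stamen counts of CRC and INO were set beside genes that mark gynoecium and ovule. The stamen level was 3.91% of the gynoecium level for CRC and 0.594% for INO. It was 0.338% for STK, an ovule identity gene with 12, 3 and 2 stamen counts. It was 0.894% for SHP1 with 7, 1 and 2 counts and 3.54% for HEC1 with 12, 14 and 12 counts. SHP2 and STY1 were at 0 in all stamen libraries. The part of gynoecium RNA in the stamen counts of CRC and INO was not tested.

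FIL, an abaxial identity gene of leaves and floral organs, was the member with the highest level per length in gynoecium. Its gynoecium libraries had 100.015, 98.7 and 91.9 CPM, from 2385, 2175 and 2125 counts. The stamen libraries had 22.1, 19.0 and 20.2 CPM and the leaf libraries 7.11, 7.90 and 7.41. The tissues fell in the order gynoecium, stamens, leaf, with wide gaps between the libraries of neighbouring tissues.

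FIL was 4.73-fold lower in stamens than in gynoecium (log2 -2.24, SE 0.06, edgeR adjusted p = 2.83e-41). It was 2.73-fold higher in stamens than in leaf (log2 1.45, SE 0.10, edgeR adjusted p = 2.07e-21) and 12.9-fold higher in gynoecium than in leaf (log2 3.69, SE 0.08, edgeR adjusted p = 8.57e-48).

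YAB3, which acts redundantly with FIL in organ polarity, did not follow the order of FIL. Its gynoecium libraries had 29.4, 27.4 and 26.8 CPM, its leaf libraries 18.1, 18.6 and 17.9, and its stamen libraries 4.29, 4.77 and 5.61. Leaf thus lay between gynoecium and stamens, with no overlap. YAB3 was 5.71-fold lower in stamens than in gynoecium (log2 -2.51, SE 0.10, edgeR adjusted p = 8.99e-32) and 3.73-fold lower in stamens than in leaf (log2 -1.90, SE 0.11, edgeR adjusted p = 2.38e-23). It was 1.53-fold higher in gynoecium than in leaf (log2 0.62, SE 0.08, edgeR adjusted p = 1.09e-09).

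YAB2, another vegetative member, varied least over the tissues. Its gynoecium libraries had 41.6, 45.9 and 41.4 CPM, its stamen libraries 23.1, 22.7 and 24.2, and its leaf libraries 14.6, 17.0 and 16.7. The order was that of FIL, with smaller steps and no overlap. YAB2 was 1.84-fold lower in stamens than in gynoecium (log2 -0.88, SE 0.07, edgeR adjusted p = 3.09e-18), 1.45-fold higher in stamens than in leaf (log2 0.53, SE 0.08, edgeR adjusted p = 6.16e-08) and 2.66-fold higher in gynoecium than in leaf (log2 1.41, SE 0.08, edgeR adjusted p = 1.02e-25).

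YAB5, the shortest protein of the family, was the member with its highest level in leaf. The leaf libraries held 50, 63 and 58 counts, or 3.82, 4.49 and 4.13 CPM. The gynoecium libraries held 28, 17 and 32 counts, or 1.17, 0.772 and 1.38 CPM. The stamen libraries held 1, 2 and 1 counts, each under the level of 3 counts per library (0.174 to 0.185 CPM).

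YAB5 thus ran from leaf through gynoecium to stamens with no overlap, on far fewer counts than the other vegetative members. It was 3.71-fold lower in gynoecium than in leaf (log2 -1.89, SE 0.24, edgeR adjusted p = 1.94e-10). With 4 counts in all stamen libraries, YAB5 is best read by ratios of scaled counts. The ratio of gynoecium to stamens was 14.1 with an exact 95% interval of 5.28 to 53.0 (edgeR adjusted p = 6.35e-09). That of leaf to stamens was 52.4 with an interval of 20.1 to 195 (edgeR adjusted p = 1.27e-18).

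Every neighbouring step in the order of levels was called for each member, including the steps to 0 in leaf for CRC and INO. The TMM factors differed by tissue (1.27 to 1.28 in gynoecium, 0.955 to 0.966 in stamens and 0.815 to 0.817 in leaf), so sizes in every comparison depend on the scaling. With library totals alone, the median log2 change of all genes moved by 0.64 between gynoecium and leaf, by 0.23 between stamens and leaf and by -0.41 between stamens and gynoecium. The gynoecium to leaf fold then became 20.2 for FIL, 4.16 for YAB2 and 2.40 for YAB3, and YAB5 was 2.38-fold lower. The fold by which stamens were under gynoecium became 2.45 for YAB2, 6.29 for FIL and 7.59 for YAB3. It became 17.2 for YAB5, 33.1 for CRC and 223 for INO. No member changed direction. The share of all calls that were higher became 39.8% in place of 54.3% between stamens and gynoecium and 67.3% in place of 51.6% between gynoecium and leaf.

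Levels of different members were compared per length, by the authors' FPKM, a count divided by gene length and by the library's total. For all 6 members the length implied by the FPKM equalled the length of the merged exons in the TAIR10.1 annotation. The summed FPKM of the family was 271 ± 11.2 in gynoecium (SD, n = 3), 38.2 ± 1.64 in stamens (SD, n = 3) and 28.2 ± 1.46 in leaf (SD, n = 3). On this scale, which leaves out the TMM factors, the gynoecium sum was several times that of either other tissue in every library.

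In gynoecium, FIL held 37.3 ± 0.851% of the family's FPKM and INO held 32.9 ± 0.554% (SD, n = 3). YAB2 held 16.6 ± 0.589%, YAB3 8.34 ± 0.434%, CRC 4.38 ± 0.483% and YAB5 0.469 ± 0.149%. FIL and INO thus made up most of the family's transcripts there. The mean FPKM of FIL, 101 ± 4.32, was above that of 95.5% of the genes tested, and that of INO, 89.0 ± 3.88, was above 94.5%. CRC, at 11.9 ± 1.80 FPKM in gynoecium, was above 55.5% of them.

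In stamens the make-up was different, with YAB2 at 48.2 ± 1.25% and FIL at 41.9 ± 2.31% (SD, n = 3). YAB3 held 7.79 ± 1.01%, and INO, CRC and YAB5 held 1.04 ± 0.529%, 0.919 ± 0.367% and 0.179 ± 0.0836%. YAB2 was at 18.4 ± 0.633 FPKM in stamens and FIL at 16.0 ± 1.31, above 70.7% and 67.2% of the genes tested.

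In leaf, YAB2 held 38.3 ± 1.43% and YAB3 33.4 ± 1.495%, followed by FIL with 17.6 ± 0.242% and YAB5 with 10.6 ± 0.322% (SD, n = 3). CRC and INO held 0. The leaf was the tissue with the most even division among the 4 vegetative members, and the highest of them, YAB2, was at 10.8 ± 0.892 FPKM, above 63.8% of the genes tested. These make-ups describe the libraries and carry no test.

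**Figure D2:**
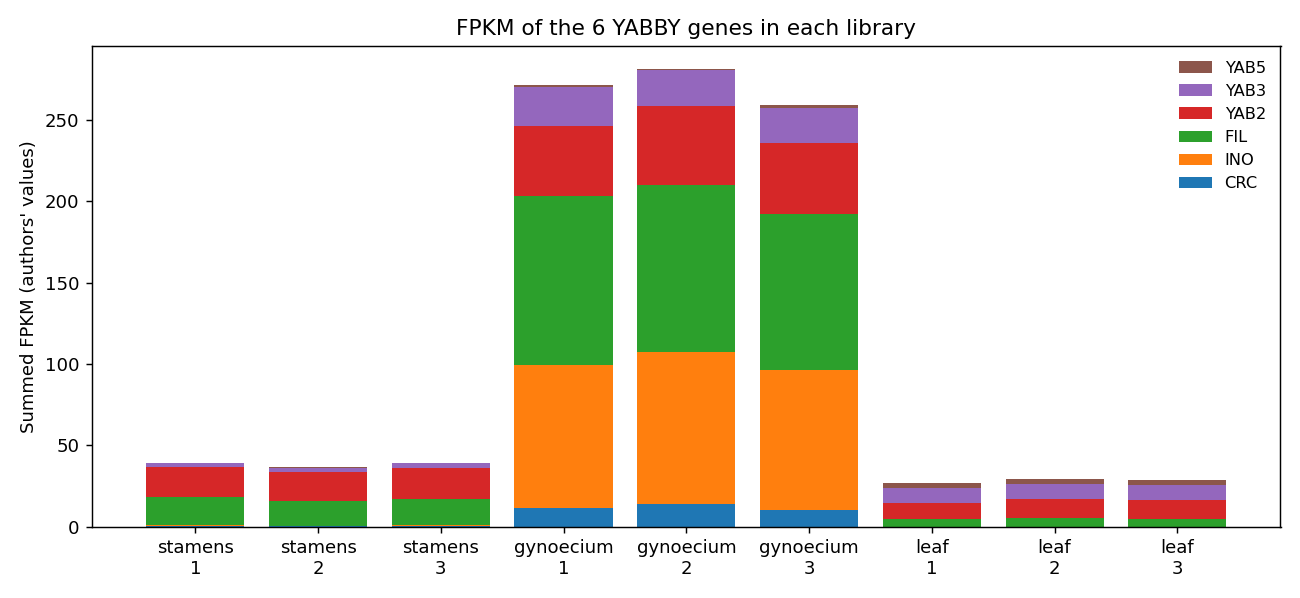
Summed FPKM of the YABBY genes in each of the 9 libraries, as stacked bars that start at 0, with colours for members. The gynoecium bars reach 259 to 281 FPKM, mostly FIL and INO, while the stamen bars reach 36.3 to 39.2 and the leaf bars 26.6 to 29.5.

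The balance within the pair of FIL and YAB3 differed between leaf and the floral tissues. FIL made up 86.9%, 83.7% and 82.3% of the pair's FPKM in the stamen libraries, 81.4%, 82.3% and 81.5% in gynoecium and 33.5%, 35.4% and 34.8% in leaf. Leaf thus had YAB3 as the larger part of the pair and both floral tissues had FIL, while stamens and gynoecium touched in their ranges. The mean share was 49.7 percentage points higher in stamens than in leaf and 47.2 higher in gynoecium than in leaf. Each had an exact two-sided permutation p of 0.1, the smallest that 3 against 3 libraries can give, and 0.12 after adjustment over 6 tests. The shares of stamens and gynoecium differed by 2.57 points (exact permutation p = 0.2, adjusted 0.2).

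In the pair of YAB2 and YAB5, YAB2 was the larger part in every library. It made up 99.7%, 99.4% and 99.7% of the pair's FPKM in stamens, 97.0%, 98.2% and 96.5% in gynoecium and 77.9%, 77.8% and 78.9% in leaf. The tissues did not overlap. The share was 2.38 points higher in stamens than in gynoecium, 21.4 points higher in stamens than in leaf and 19.0 points higher in gynoecium than in leaf, each with an exact permutation p of 0.1 and 0.12 after adjustment. A design of this size cannot reach 0.05, so none of these shares passes a test.

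**Figure D3:**
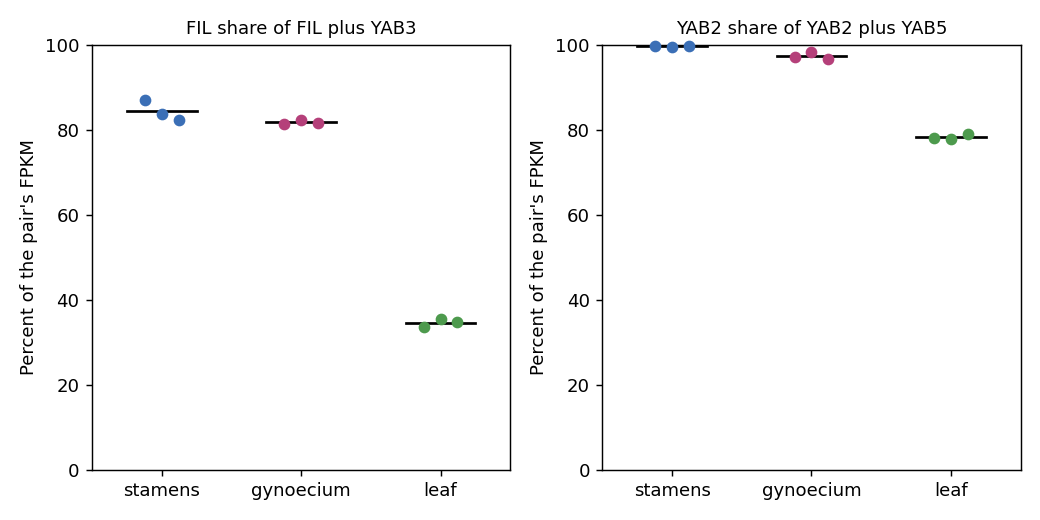
Share of FIL in the FPKM of FIL plus YAB3 (left) and of YAB2 in that of YAB2 plus YAB5 (right), in percent on axes from 0 to 100. Points are libraries and bars are means of 3; the leaf points lie at 33.5 to 35.4% on the left and 77.8 to 78.9% on the right, under all floral points.

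Similarity of protein and similarity of tissue pattern were set side by side for the 15 pairs of members, as a description. Identity ran from 38.6% for INO and YAB3 to 63.2% for FIL and YAB3. The distance between patterns was the Euclidean distance of centred log2 CPM over the 9 libraries. The 4 vegetative members were at 57.4 to 63.2% identity with each other, above every pair with CRC or INO, the highest of which was INO and YAB5 at 49.4%.

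The pair closest in pattern was FIL and YAB2, at a distance of 2.80 with 57.4% identity. YAB2 and YAB3 followed at 3.03. The pairs with the highest identity stood farther apart, FIL and YAB3 at 4.54 and YAB2 and YAB5 at 6.29. Next in identity, YAB3 and YAB5 (59.8%) were at 3.65. Pairs among the vegetative members ran from 2.80 to 8.14, and pairs with CRC or INO, lower in identity, from 3.73 to 14.1. CRC lay closer to FIL (3.73) than to INO (4.39), and INO and YAB5 were the farthest apart, at 14.1. Distances with CRC, INO or YAB5 rest in part on libraries with few or no counts. There they depend on the prior count of 2 added before taking logs.

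**Figure D4:**
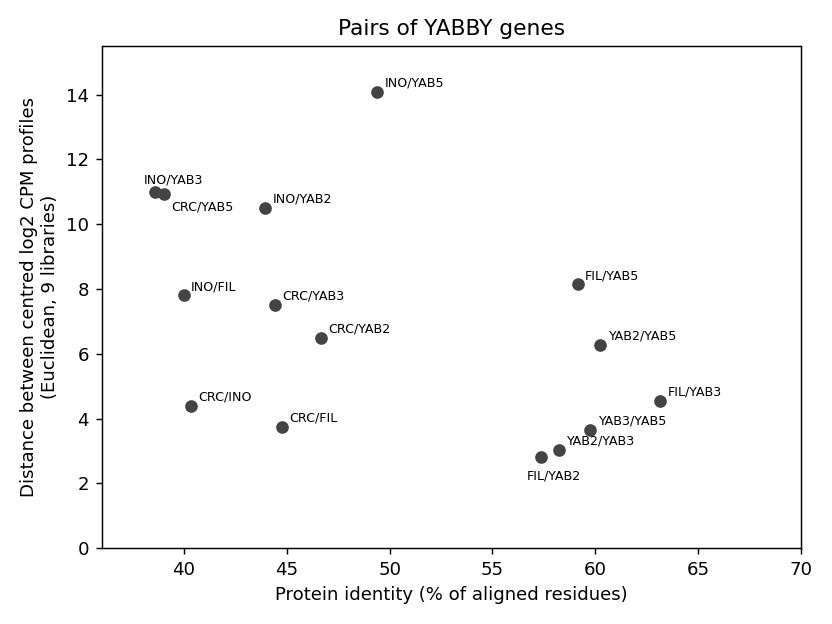
Protein identity of each pair of YABBY genes in percent of aligned residues, against the distance between their centred log2 CPM profiles over 9 libraries. Each point is a pair of members; the pair with the highest identity, FIL and YAB3 (63.2%), lies at a distance of 4.54, above FIL and YAB2 at 2.80. The horizontal axis starts above 0.

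Genes that work with the family were read from 4 lists named by locus. Calls in these lists are read beside calls over all genes tested. Between stamens and gynoecium, 46.3% of all genes were called higher in stamens and 39.0% lower, with a median log2 change of 0.09. Between stamens and leaf, 50.0% were called higher in stamens and 37.9% lower, with a median of 0.23. Between gynoecium and leaf, 42.6% were called higher in gynoecium and 40.0% lower, with a median of 0. A call on its own thus says little about a list. Some genes of these lists, AP3, PI, SHP1, SHP2, LFY and STM, also serve as tissue markers above. The first list holds the co-repressors that YABBY proteins bind, LEUNIG (LUG), its homolog LUH, SEUSS (SEU) and the SEUSS-like genes SLK1, SLK2 and SLK3. All 6 were counted in all tissues.

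Between stamens and gynoecium, 1 co-repressor gene was higher in stamens, 4 were lower and 1 was not called, with a median log2 change of -0.56. LUH was 1.66-fold higher in stamens (278.6 against 167.6 CPM). SLK3 was 2.57-fold lower (10.9 against 28.0 CPM) and SEU 2.03-fold lower (21.1 against 42.9 CPM). SLK1 was at 54.9 CPM in stamens and 54.5 in gynoecium, and was lower in stamens when scaled by library totals (log2 -0.40) or upper quartiles (log2 -0.14).

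Against leaf, all 6 co-repressor genes were higher in gynoecium, with a median log2 change of 1.24, led by SLK2 (3.72-fold) and LUG (2.76-fold). In stamens 4 were higher than in leaf, led by SLK1 (2.62-fold) and SLK2 (2.22-fold), and SLK3 was 1.42-fold lower, with a list median of 1.03. SEU was at 21.1 CPM in stamens and 20.1 in leaf, and was higher in stamens when scaled by library totals (log2 0.31).

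The second list holds 11 regulators of organ polarity. KANADI genes and the auxin response factors ETT and ARF4 act on the abaxial side with the vegetative YABBY genes, and PHB, PHV, REV, AS1 and AS2 are known from the adaxial side. In stamens 3 were higher than in gynoecium and 8 lower, with a median log2 change of -1.55. AS2 was 6.66-fold higher (50.7 against 7.63 CPM) and ETT 1.37-fold higher, while PHB was 4.76-fold lower (14.0 against 66.6 CPM) and KAN3 3.77-fold lower. With library totals ETT and PHV were no longer called.

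Against leaf, 6 polarity genes were higher in stamens, 4 were lower and REV was not called (29.1 against 27.9 CPM), with a median log2 change of 0.14. AS2 was at 50.7 CPM in stamens and 0.292 in leaf, a 170-fold difference, and KAN4, at 0 in leaf, was at least 37.0-fold higher. KAN1 was 3.57-fold lower in stamens and AS1 3.37-fold lower. Under other scalings REV was higher with library totals (log2 0.30), and ARF4, higher in stamens by 1.102-fold, was not called with upper quartiles.

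In gynoecium 9 polarity genes were higher than in leaf and 2 were lower, with a median log2 change of 1.11. KAN4, an ovule integument gene, was at least 138-fold higher and AS2 was 25.5-fold higher. KAN1 (37.2 against 41.2 CPM) and AS1 (54.1 against 62.4 CPM) were lower, but with library totals both were higher (log2 0.49 and 0.44), and with upper quartiles neither was called.

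The third list holds 12 floral regulators that act upstream of CRC or INO or together with them. In stamens 4 were higher than in gynoecium and 8 lower, with a median log2 change of -1.92. PI, a stamen and petal identity gene, was at 774.9 CPM in stamens and 7.75 in gynoecium, and SPL, needed for spore formation, was 57.3-fold higher. SHP2 was at 0 in stamens and at least 12.3-fold lower there, and SHP1 was 107-fold lower. Among genes named with INO in ovules, SUP was 16.6-fold, ANT 18.6-fold and BEL1 3.83-fold lower in stamens. SPL, on the same list, went the other way (27.8 CPM in stamens against 0.478 in gynoecium).

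Against leaf, 11 of these regulators were higher in gynoecium and 9 in stamens. The median log2 change was 8.52 and 4.74, or 5.46 and 4.43 with genes at 0 set at their bound. AG, the carpel and stamen identity gene, was at least 449-fold higher in gynoecium, and SUP at least 193-fold higher. PI was at least 3540-fold and AP3 at least 1568-fold higher in stamens. BEL1 was the exception, at 119 CPM in leaf, 3.58-fold lower in gynoecium and 13.7-fold lower in stamens. LFY and SHP2 were at 0 in both stamens and leaf.

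The fourth list holds 9 genes that act with or below YABBY genes, of which 8 were tested. NUB, a homolog of JAG, had too few counts, with 0.216 CPM in stamens and 0 elsewhere. All 8 were lower in stamens than in gynoecium, though the libraries of KNAT6 overlapped, and their median log2 change was -4.01 as fitted and -3.41 with YUC4 at its bound. STM, a meristem gene that FIL and YAB3 are known to restrain in lateral organs, was 29.7-fold lower (1.90 against 56.7 CPM). YUC4, an auxin synthesis gene downstream of CRC, was at 0 in stamens and at least 4.25-fold lower there. FUL was 27.8-fold lower (4.40 against 123 CPM) and JAG, a regulator of organ shape, was 16.9-fold lower.

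All 8 were higher in gynoecium than in leaf, and their median log2 change was 7.26 as fitted and 2.85 with genes at 0 set at their bound. STM was at least 259-fold higher and KNAT1, a relative of STM, at least 112-fold higher. In stamens 5 were higher than in leaf, 2 lower and YUC4 was at 0 in both, for a median of 4.11 as fitted and 1.61 with bounds. STM was at least 8.68-fold and KNAT1 at least 7.26-fold higher in stamens, while FUL was 22.2-fold lower. TRN2, a target of CRC, was 1.43-fold lower in stamens with overlapping libraries, and was not called with library totals.

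Meristem markers were read beside the gynoecium results. The sum of 5 such markers was 55.5 to 63.0 CPM in gynoecium, 2.55 to 3.30 in stamens and 0 in leaf, with 3, 2 and 0 of 5 counted. STM made up most of the sum. LFY was at 0.875 CPM in gynoecium and 0 in stamens, while AP1 was higher in stamens (0.912 against 0.437 CPM in gynoecium). CLV3, which marks the stem cells of the meristem, and UFO, a partner of LFY in floral meristems, were at 0 in all libraries. The part of meristem cells in the level of the YABBY genes was not tested.

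**Figure D5:**
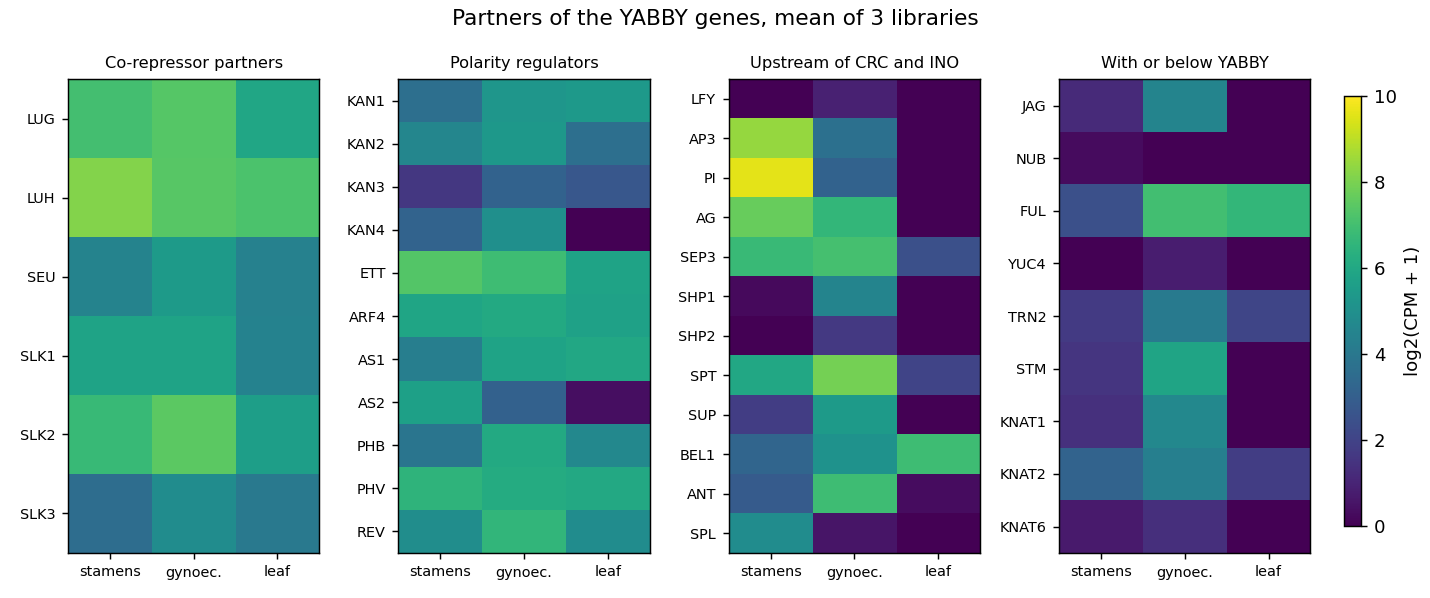
Mean level of the genes of the 4 lists in stamens, gynoecium and leaf (n = 3 each), coloured by log2(CPM + 1) from 0 to 10. PI is brightest in stamens at 774.9 CPM, and STM, JAG and KNAT1 are brightest in gynoecium and dark in leaf, where they have 0 counts.

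For each member, the 3 genes with the nearest pattern were taken from 8898 tested genes with a symbol, by the same Euclidean distance over 9 libraries. Near CRC were TT16 (0.858), MYB107 (1.12) and GH9B1 (1.15). TT16, a MADS-box gene of the ovule's inner coat, was at 10.3 CPM in gynoecium, 0.294 in stamens and 0 in leaf, which is close to CRC in level as well as in pattern. GH9B1 was at a much higher level, with 673 CPM in gynoecium, 48.1 in stamens and 7.69 in leaf.

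Near INO were ABCG8 (1.19), ADS4 (1.35) and SCPL43 (1.56). ABCG8, a transporter gene, was at 43.9 CPM in gynoecium, 0.320 in stamens and 0 in leaf. ADS4, a fatty acid desaturase gene, was at 187 CPM in gynoecium and 0.879 in stamens. None of the 8898 genes came as near to INO as the nearest genes came to the vegetative members FIL, YAB2 and YAB3.

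Near FIL were TRM27 (0.274), hemf2 (0.471) and LOX1 (0.472), and TRM27 was at 60.1 CPM in gynoecium, 12.5 in stamens and 4.99 in leaf. Near YAB2 were RPS5A (0.204), HON4 (0.237) and NAP57 (0.242), of which RPS5A encodes a ribosomal protein and was at 782 CPM in gynoecium, 407 in stamens and 309 in leaf. Near YAB3 were SPL2 (0.285), GATA15 (0.368) and ROPGEF14 (0.399). SPL2, a transcription factor gene, was at 62.7 CPM in gynoecium, 39.5 in leaf and 10.7 in stamens.

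Near YAB5 were NIG1 (0.712), FT (0.733) and GATL6 (0.739). FT, which encodes the mobile flowering signal made in leaves, was at 2.62 CPM in leaf, 0.477 in gynoecium and 0 in stamens. NIG1 was at 2.02, 0.546 and 0 CPM in the same order. These distances are descriptions over 9 libraries of 3 tissues, and for CRC, INO and YAB5 they rest in part on libraries with few or no counts.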

How the data were processed

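Total RNA was extracted with Trizol and sequenced in 9 libraries. The deposited counts are whole-number reads per locus made by the authors. The submitters' processing notes name Bowtie2 2.2.3, HISAT2 2.1.0, TopHat2, HTSeq 0.6.0 and the TAIR10 genome, with no role or order, and no strand setting or annotation release is given in the sources used here. The deposited FPKM values were checked to equal counts over library total and merged exon length, within 0.5 bases of the TAIR10.1 length at 24044 of 24180 loci.

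Counts were fitted with edgeR 4.0.16 in R 4.3.3 (filterByExpr by group, TMM, robust quasi-likelihood, 1 mean per group over all 9 libraries), with Benjamini-Hochberg adjustment over 20827 genes. The SE of a log2 change was taken from its F statistic. A fold against a tissue at 0 uses 3 counts per library (0.126 to 0.229 CPM) and is a lower bound. Intervals and floors cover counting error only. Shares were tested by exact permutation with scipy 1.17.1. The edgeR step was run on simulated data with changes planted in a small part of the genes. In the real data most genes were called, so that run does not test the scaling between tissues. No replicate pair was identical or within sampling noise (chi-square per degree of freedom 1.77 to 3.10). Same-numbered libraries did not deviate together, so no pairing was used.

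Locus names, sequences and coordinates are from the RefSeq TAIR10.1 genome and annotation, read at the annotated positions; the deposited tables hold locus names only. Protein identity came from global alignments with biopython 1.88. Alternatives were other scalings, DESeq2 1.42.0, limma 3.58.1 on counts and on log2(FPKM + 1) or log2(FPKM + 0.1), other filters, a replicate block, each pair of tissues alone and each library left out. The members, lists and markers were chosen with earlier results of these data known. Named from each list are up to 2 called genes per direction with the largest log2 change and the uncalled gene with the highest level, with any other called gene allowed, and for likeness the 3 nearest genes with a symbol.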

Additional observations from a re-analysis of the deposited data

How the results depend on the processing

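No member changed direction or its side of the threshold in the 355 fits of single members under alternatives, and the highest adjusted p was 0.00359, for CRC between stamens and leaf with limma on log2(FPKM + 1). That scale understates low genes: YAB5 between stamens and gynoecium was at log2 -1.07 there. Fewer members were called only where fewer were tested: 5 in each comparison with at least 10 CPM in 3 libraries, which drops YAB5 (CPM on library totals, not TMM-scaled), and 4 between stamens and leaf with those libraries alone, which drops CRC and INO. Leaving out each library in turn left 6 members called in every comparison and moved no member's fold by over 1.5 times. Replicate numbers are not said to mark a shared plant or day, and deviations of same-numbered libraries correlated at -0.0521 to 0.0541, against -0.0412 to 0.0495 for other pairs. With the replicate number as a block, 6 members were called in each comparison and calls over all genes went from 17773 to 17644, 18305 to 18204 and 17192 to 17100 (stamens and gynoecium, stamens and leaf, gynoecium and leaf). Leave-one-out differences in the FIL share ranged from 1.25 to 3.58 points between stamens and gynoecium and from 46.7 to 50.7 points against leaf. Depth limits CRC and INO in stamens and YAB5 in both floral tissues.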
